A study of Mus musculus with 64 samples.

Results

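The genes described here are 37 plasma proteins of blood coagulation and of complement that liver makes, followed in mouse liver after knockdown of Acsf3. They were found by gene symbol among the 55487 genes of a table of unique molecular identifier (UMI) counts. All 37 were present and all 37 passed the filter on low counts. Of these, 21 belong to coagulation, fibrinolysis and their inhibitors, with vitronectin counted among them, and 16 belong to complement. The sh-Acsf3 group consisted of male C57BL/6J mice on ad libitum feeding that had received an AAV8 vector with a short hairpin RNA lowering Acsf3 in liver, and the sh-Ctl group consisted of their controls of the same strain, sex and feeding. Livers of both groups were taken 4 weeks after the injection every 3 h around the day, at ZT0 to ZT21 (zeitgeber time, where ZT0 is lights on). Each of the 8 times had 4 replicates of either treatment, 64 libraries in all. The promoter that drives the hairpin, the hairpin of the controls and the age of the mice are not given in the sources used here. The labels number the replicates without saying that each is a separate mouse, so the p-values measure the spread between these samples.

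Coagulation is a chain of proteases in which each activated factor cleaves the next until thrombin turns soluble fibrinogen into fibrin, and plasmin later dissolves the clot. Complement is a parallel chain of proteases that is started by antibody, by sugar-binding lectins or by spontaneous turnover of C3, and that ends in a pore called the membrane attack complex. Hepatocytes secrete most proteins of both chains, and several of them, fibrinogen, C3 and C4 among them, belong to the acute-phase proteins whose synthesis rises during inflammation.

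Messenger RNA was measured by BRB-seq, a bulk method that tags the 3′ end of each transcript and counts UMIs. Totals ran from 0.839 to 9.35 M UMIs in sh-Acsf3 (median 2.03 M) and from 1.48 to 6.06 M in sh-Ctl (median 3.13 M). Values are given as CPM, UMI counts scaled to library size with TMM factors. Acsf3, which encodes a mitochondrial malonyl-CoA synthetase, averaged 2.56 ± 1.68 CPM in sh-Acsf3 and 11.3 ± 2.42 CPM in sh-Ctl (SD within times, n = 32 each). Its level lay below that of every control of its time in 31 of 32 sh-Acsf3 libraries. The hepatocyte markers Alb, Apoa1, Apoa2, Ttr, Serpina1a and Tat summed to 104222 to 146099 CPM in sh-Acsf3 and to 65408 to 138004 CPM in sh-Ctl and so were high in both groups, as the liver label requires. Of the 64 libraries, 4 stood apart by their Saa1 level, all of them sh-Ctl: ZT9 replicate 1 and replicate 2 of ZT12, ZT15 and ZT18. They held 2083 to 4351 CPM of the acute-phase gene Saa1, against at most 236 CPM in the other 60. Results are therefore given with and without these 4 libraries. Another 8 libraries, 6 of sh-Acsf3 and 2 of sh-Ctl, held 164 to 6953 CPM of exocrine pancreas transcripts, against at most 25.1 CPM elsewhere.

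Because the method gives one tag per transcript, CPM were compared between genes without division by length. The members were abundant. Summed over the members, TMM-scaled CPM had a median of 25928 per library and ran from 18818 to 48547. Their mean levels ran from 36.0 CPM for F11, the zymogen of a protease that activates F9, to 4048 CPM for Fgb, the beta chain of fibrinogen, with a median of 339.6 CPM. Above 1000 CPM stood 8 members: Fgb, Fga at 2527 and Fgg at 2481, which encode the 3 chains of fibrinogen, C3 at 2461, Serpinc1 (antithrombin) at 2028, Plg (plasminogen) at 1725, Vtn (vitronectin) at 1615 and Kng1 (kininogen) at 1158 CPM. A further 25 members lay between 100 and 1000 CPM. Under 100 CPM stood 4: Masp1, a protease of the lectin pathway, at 87.9, F7, which starts coagulation with tissue factor, at 38.6, Pros1 (protein S) at 37.0 and F11. Proteases were thus found at both ends of the range, and the clot substrate, fibrinogen, at the top.

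Averaged over the 8 times, 9 of the 37 members differed between treatments, 1 higher and 8 lower in sh-Acsf3. Pros1, the cofactor of activated protein C, was the member that rose. Those that fell were Klkb1, C2, C8a, Hc, Serpind1, Plg, Serpinc1 and Fgb. Among all 10097 genes tested, 14.5% were called, 8.26% higher and 6.21% lower. Among the 2314 genes whose mean level was at or above that of the lowest member, 5.27% were higher and 13.6% lower. The members' median difference was -0.098 on the log2 scale, against -0.0085 over all genes tested and -0.046 over the 2314. Of the 37 members, 28 (75.7%) had a negative estimate, against 52.7% of all genes and 67.5% of the 2314. A negative estimate was found at every time for 6 members and at 7 or 8 times for 15. The same counts were not made over all genes, so they do not set the members apart. In bulk tissue, fewer cells of a type and less RNA per cell cannot be told apart. The plot of averaged differences shows all members by role.

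**Figure D1:**
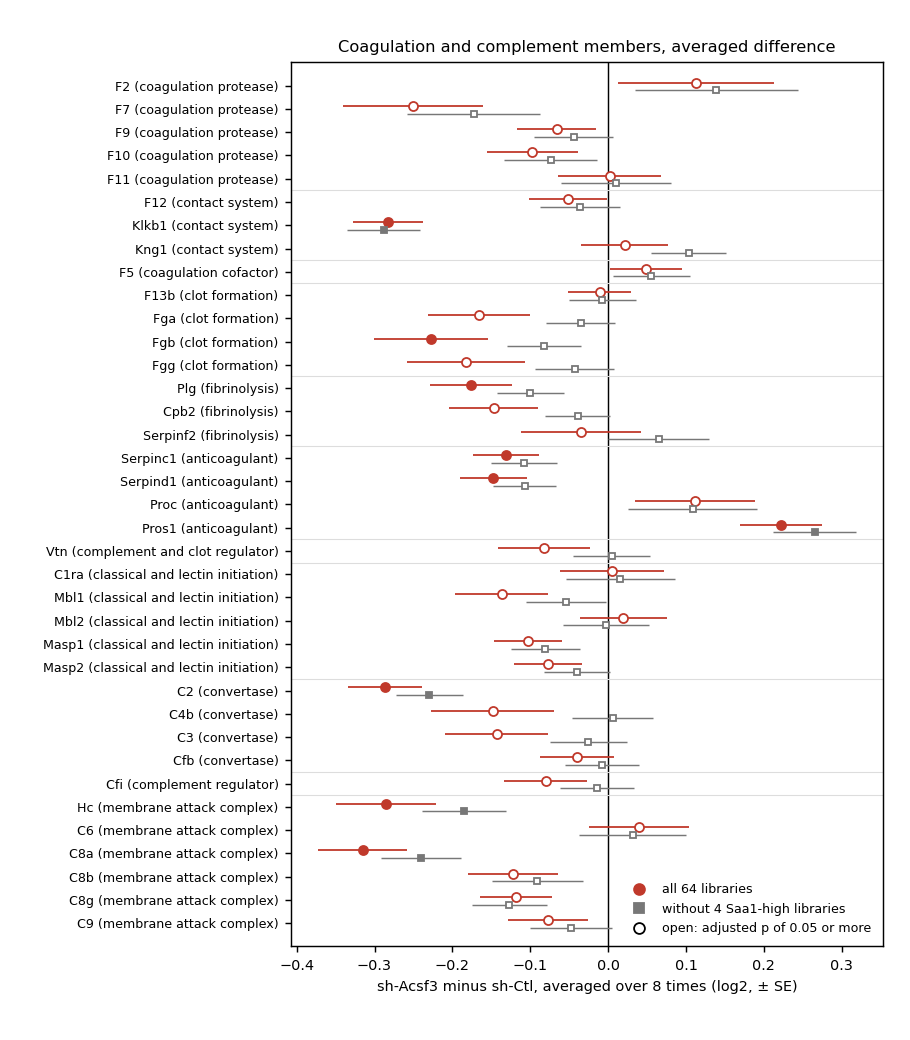
Averaged log2 difference, sh-Acsf3 minus sh-Ctl, of each of the 37 members with its SE, ordered by role; red circles use all 64 libraries, grey squares leave out the 4 Saa1-high libraries, and filled symbols have an adjusted p under 0.05. Klkb1, C2, C8a and Hc are filled to the left of 0 in both fits and Pros1 to the right, while Fgb, Plg, Serpinc1 and Serpind1 are filled in the fit of all libraries but open without the 4.

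Of the contact system, which starts coagulation on charged surfaces and releases bradykinin, Klkb1 fell. It encodes plasma prekallikrein, the zymogen that activated F12 cleaves. Klkb1 ranged from 186 to 383 CPM with a median of 285 CPM in sh-Acsf3, and from 268 to 450 CPM with a median of 354 CPM in sh-Ctl. Its means were 294 ± 37.0 CPM in sh-Acsf3 and 357 ± 37.7 CPM in sh-Ctl (SD within times, n = 32 each), a difference of -0.28 ± 0.04 (log2, SE; adjusted p = 2.00e-06), negative at 8 of 8 times. The groups did not overlap at ZT3, ZT15, ZT18 and ZT21, with sh-Acsf3 the lower, and overlapped at the other times. At ZT15 the sh-Acsf3 values were 270.4, 293, 278 and 282 CPM, against 368, 369.5, 354 and 340.2 CPM in sh-Ctl. The call did not rest on the Saa1-high libraries, since the difference was -0.29 without them (adjusted p = 3.92e-06). The other contact members, F12 at -0.05 ± 0.05 and Kng1 at 0.02 ± 0.06, did not pass.

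The clotting proteases F2 (prothrombin), F7, F9, F10 and F11 and the cofactor F5 did not pass, with estimates between -0.25 for F7 and 0.11 for F2. F7 came nearest. It averaged 35.2 ± 10.2 CPM in sh-Acsf3 and 42.1 ± 10.8 CPM in sh-Ctl (SD within times, n = 32 each), a difference of -0.25 ± 0.09 (adjusted p = 0.0510). It passed in 18 of 64 fits that each left out 1 library, and in the full set with DESeq2 and with limma-voom. Without the Saa1-high libraries it stood at -0.17 (adjusted p = 0.186). F13b, which carries the transglutaminase that cross-links fibrin, was at -0.01 ± 0.04.

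Of the 3 fibrinogen chains, Fgb fell and Fga and Fgg did not pass. Fgb ranged from 2589 to 5598 CPM with a median of 3494 CPM in sh-Acsf3, and from 2521 to 11022 CPM with a median of 4130 CPM in sh-Ctl. The ranges overlapped, and the highest sh-Ctl value was 1 of the Saa1-high libraries, ZT9 replicate 1. The difference was -0.23 ± 0.07 (adjusted p = 0.0259). Leaving out that library alone gave -0.17 (adjusted p = 0.0512), and leaving out all 4 Saa1-high libraries gave -0.08 ± 0.05 (adjusted p = 0.278). Fga stood at -0.17 ± 0.07 and Fgg at -0.18 ± 0.08 in all libraries, with adjusted p of 0.0776 and 0.0964, and at -0.04 each without the 4.

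Among the inhibitors and the fibrinolytic proteins, Serpind1 (heparin cofactor II), Serpinc1 and Plg fell by small amounts. Plg averaged 1619 ± 152 CPM in sh-Acsf3 and 1830 ± 349 CPM in sh-Ctl (SD within times, n = 32 each), a difference of -0.18 ± 0.05 (adjusted p = 0.0139). Serpinc1 averaged 1937 ± 184 CPM in sh-Acsf3 and 2119 ± 237 CPM in sh-Ctl, a difference of -0.13 ± 0.04 (adjusted p = 0.0247). For Serpind1 the means were 256 ± 28.6 CPM in sh-Acsf3 and 283 ± 32.7 CPM in sh-Ctl, a difference of -0.15 ± 0.04 (adjusted p = 0.0123). None of these 3 passed without the Saa1-high libraries, where the estimates were -0.10 for Plg, -0.11 for Serpinc1 and -0.11 for Serpind1, with adjusted p of 0.115, 0.0749 and 0.0615. Cpb2, which protects fibrin from plasmin, Serpinf2 (alpha-2-antiplasmin), Proc (protein C) and Vtn did not pass.

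Pros1 ranged from 29.6 to 54.6 CPM with a median of 39.1 CPM in sh-Acsf3, and from 19.8 to 49.3 CPM with a median of 33.7 CPM in sh-Ctl. The difference was 0.22 ± 0.05 (adjusted p = 0.00153) and its estimate was positive at 8 of 8 times. At ZT0 the sh-Acsf3 values were 40.6, 39.9, 34.3 and 35.7 CPM, against 25.5, 27.4, 19.8 and 31.6 CPM in sh-Ctl. The groups did not overlap there, whereas at ZT9 they did, with means of 35.2 CPM in sh-Acsf3 and 35.1 CPM in sh-Ctl. Without the Saa1-high libraries the difference was 0.27 (adjusted p = 0.000163). It did not pass without replicate 3 of every group, at 0.17 (adjusted p = 0.0661).

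In complement, C2, Hc and C8a fell, and the other 13 members did not pass. C2, the protease subunit of the classical and lectin C3 convertase, ranged from 85.2 to 143 CPM with a median of 103 CPM in sh-Acsf3, and from 90.6 to 173 CPM with a median of 124 CPM in sh-Ctl. Its means were 105 ± 11.9 CPM in sh-Acsf3 and 128 ± 19.2 CPM in sh-Ctl (SD within times, n = 32 each), a difference of -0.29 ± 0.05 (adjusted p = 5.30e-06). At ZT12 the sh-Acsf3 values were 89.2, 102.5, 96.7 and 92.1 CPM, against 133, 161, 119 and 116 CPM in sh-Ctl. All 4 sh-Acsf3 libraries were the lower ones at ZT3, ZT6 and ZT12. The 3 other convertase genes, C3, C4b and Cfb, stood at -0.14 ± 0.07, -0.15 ± 0.08 and -0.04 ± 0.05, and without the Saa1-high libraries at -0.03, 0.0059 and -0.0080. C4b has a near-identical copy, C4a, so the counts of the 2 may be split unevenly.

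The other 2 complement genes that fell encode parts of the membrane attack complex. Hc, the mouse gene of complement C5, averaged 442 ± 73.0 CPM in sh-Acsf3 and 540.4 ± 122 CPM in sh-Ctl (SD within times, n = 32 each), a difference of -0.29 ± 0.06 (adjusted p = 0.000909). C8a, the alpha chain of C8, averaged 302 ± 40.2 CPM in sh-Acsf3 and 377 ± 76.9 CPM in sh-Ctl, a difference of -0.32 ± 0.06 (adjusted p = 3.27e-05). At ZT21 C8a had 281, 279.6, 214 and 258 CPM in sh-Acsf3, against 377, 340.4, 364.5 and 352 CPM in sh-Ctl, with no overlap. At ZT0, by contrast, the 4 sh-Acsf3 values of C8a ran from 265.5 to 399.8 CPM and covered the sh-Ctl range of 301 to 378 CPM. Without the Saa1-high libraries the differences were -0.18 for Hc (adjusted p = 0.0119) and -0.24 for C8a (adjusted p = 0.000439). The other chains of C8, C8b at -0.12 ± 0.06 and C8g at -0.12 ± 0.05, did not pass, nor did C6 at 0.04 ± 0.06 and C9 at -0.08 ± 0.05. The starters of the classical and lectin pathways, C1ra, Mbl1, Mbl2, Masp1 and Masp2, lay between -0.14 and 0.02, and the inhibitor Cfi at -0.08 ± 0.05.

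**Figure D2:**
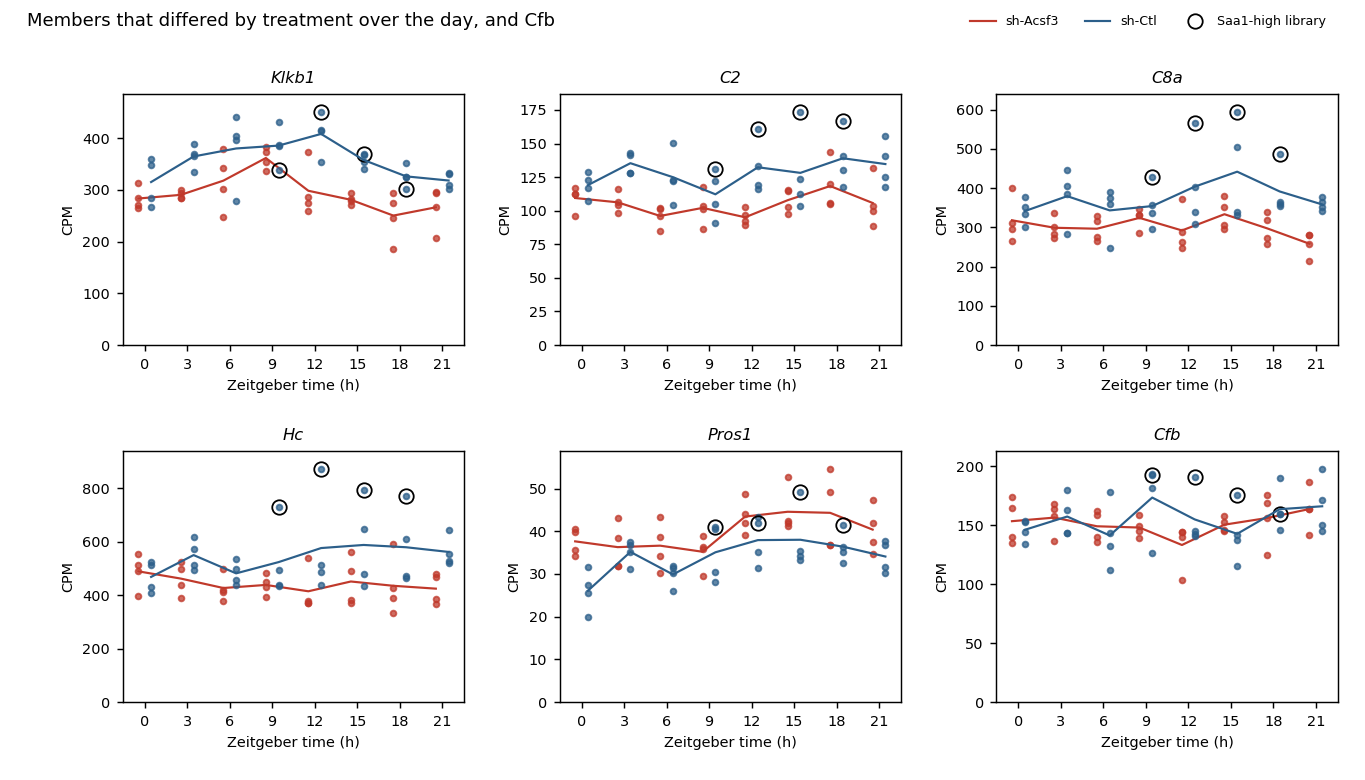
Level in CPM (linear axis from 0) of Klkb1, C2, C8a, Hc, Pros1 and Cfb against zeitgeber time in sh-Acsf3 (red) and sh-Ctl (blue); points are libraries, lines join means of 4, and black rings mark the 4 Saa1-high libraries. The red line runs below the blue one at each of the 8 times for Klkb1, C2 and C8a and above it for Pros1, all 4 ringed libraries are the highest of their group for Hc and C8a but only those at ZT12 and ZT15 for Klkb1, and the lines of Cfb cross.

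Leaving out the 4 Saa1-high libraries reduced the lower calls to 4 (Klkb1, C2, Hc and C8a, against a background of 5.83% lower), kept Pros1 as the 1 higher call (background 8.28%) and brought the members' median difference to -0.039. The estimate moved upward for 32 of the 37 members. Scaling by library size alone, without TMM, named the same 4 lower members and Pros1, with 2.45% of all genes lower and 11.1% higher. Under TMM all genes split into 834 higher and 627 lower calls, and under library size alone into 1125 higher and 247 lower.

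At single times, with 4 libraries on each side, the test called 1 member at 1 time, Klkb1 at ZT12, where 1.4% of all genes were called. At the other times 0 members were called, against 0.515% of all genes at ZT0, 0.0693% at ZT3, 0.218% at ZT6, 0.357% at ZT9, 0.0297% at ZT15, 0.168% at ZT18 and 0.317% at ZT21. Klkb1 at ZT12 had 275, 374, 259 and 285.5 CPM in sh-Acsf3, against 413, 450.3, 354 and 416 CPM in sh-Ctl, a difference of -0.45 ± 0.13 (adjusted p = 0.0487). The groups overlapped, since 1 sh-Acsf3 library lay above the lowest control, and the highest control, at 450.3 CPM, is a Saa1-high library. The call was lost without the Saa1-high libraries, with library size alone, with no gene filter, under the filter of 5 mean CPM and without each of replicates 1, 3 and 4. C2 at the same time stood just outside the threshold at -0.48 ± 0.13 (adjusted p = 0.0520), and F7 likewise (adjusted p = 0.0771). Both were called there with DESeq2 but not with limma-voom. Counting members whose 4 sh-Acsf3 values all lay below the 4 sh-Ctl values gave 1 at ZT0, 3 at ZT3, 2 at ZT6, 1 at ZT9, 2 at ZT12, 1 at ZT15, 2 at ZT18 and 4 at ZT21. Over all genes this held for 1.96%, 1.84%, 1.9%, 2.2%, 2.96%, 1.61%, 1.7% and 2.96% in the order of times. The members' shares were 8.11% at ZT3 (Klkb1, Serpind1 and C2) and 10.8% at ZT21 (Klkb1, Fgg, Hc and C8a), 5.41% at ZT6, ZT12 and ZT18, and 2.7% at ZT0, ZT9 and ZT15, where 1 member did so. Members with all 4 sh-Acsf3 values above the 4 sh-Ctl values were found at ZT0, where F5 and Pros1 did so against 3.21% of all genes. At the other times 0 members did so, against 2.7% of all genes at ZT3, 2.07% at ZT6, 3.02% at ZT9, 3.86% at ZT12, 2% at ZT15, 2% at ZT18 and 3.5% at ZT21. The test that the 8 differences are equal called 0 members and 0% of all genes (edgeR, and DESeq2 likewise), and 0 members had an unadjusted p under 0.05.

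Other genes of the same chains were counted from lists of their pathways. Of 13 tested further genes of coagulation and fibrinolysis, 1 was higher and 1 lower, against 8.26% of all genes higher and 6.21% lower. Anxa2, a plasminogen receptor subunit, was higher at 0.77 ± 0.11 (adjusted p = 8.71e-08), and Proz (protein Z) was lower at -0.13 ± 0.04 (adjusted p = 0.0335). Of 5 genes of the vitamin K cycle and of factor secretion, 2 were lower. Vkorc1, the reductase that warfarin blocks, averaged 197 ± 20.1 CPM in sh-Acsf3 and 223 ± 30.6 CPM in sh-Ctl, a difference of -0.18 ± 0.05 (adjusted p = 0.00381). Lman1, which carries factors V and VIII out of the endoplasmic reticulum, stood at -0.11 ± 0.04 (adjusted p = 0.0441). Among further plasma complement genes, Cfhr2 was lower at -0.13 ± 0.04 (adjusted p = 0.0162) and Colec11, a lectin, was higher at 0.52 ± 0.07 (adjusted p = 1.33e-07).

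Complement genes known from macrophages went the other way from C2, Hc and C8a. All 3 chains of C1q were higher, with a summed level of 95.03 to 267 CPM in sh-Acsf3 and 60.6 to 211 CPM in sh-Ctl. C1qb averaged 50.8 ± 16.5 CPM in sh-Acsf3 and 31.8 ± 11.5 CPM in sh-Ctl (SD within times, n = 32 each), a difference of 0.67 ± 0.11 (adjusted p = 1.44e-05). Of 6 tested receptors and membrane regulators, C3ar1, Vsig4 and Itgb2 were higher and Cd59a, which blocks the membrane attack complex, was lower at -0.23 ± 0.05 (adjusted p = 0.00134). Markers of other liver cells also differed. Of 8 Kupffer cell and macrophage markers 3 were higher, summing to 54.4 to 212 CPM in sh-Acsf3 and 59.6 to 263 CPM in sh-Ctl. All 6 stellate cell markers were higher, summing to 282 to 593 CPM in sh-Acsf3 and 136 to 276 CPM in sh-Ctl. All 4 tested of 7 lymphocyte markers were higher, summing to 5.38 to 30.1 CPM in sh-Acsf3 and 0.799 to 8.40 CPM in sh-Ctl. Of 7 endothelial markers 1 was higher. Of 6 hepatocyte markers 1 was lower, Serpina1a at -0.14 ± 0.05 (adjusted p = 0.0409). Of 3 markers of periportal hepatocytes 2 were lower, Hal at -0.27 ± 0.07 (adjusted p = 0.00282) and Cyp2f2 at -0.19 ± 0.05 (adjusted p = 0.00499). Of 3 pericentral markers 1 was higher, Oat at 0.41 ± 0.10 (adjusted p = 0.00330). The 4 platelet markers were too low to test, at 1.14 to 8.64 CPM summed in sh-Acsf3 and 0.874 to 7.17 CPM in sh-Ctl. No marker of these lists was at 0 in all libraries. The part of cell makeup in the members' differences was not tested.

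The members were also followed in the 4 Saa1-high libraries. Of the 5 acute-phase genes looked at beside them, Saa1, Saa2 and Orm2 were lower on average in sh-Acsf3, a comparison that includes the 4 Saa1-high controls. The median library had 57.9 CPM of Saa1 in sh-Acsf3 and 41.8 CPM in sh-Ctl. The 5 genes summed to 1080 to 2293 CPM in sh-Acsf3 and to 1108 to 15090 CPM in sh-Ctl. Of the 37 members, 14 lay above every other replicate of their group in each of the 4 libraries, against 2.41% of all genes, and 0 lay below in all 4, against 1.59%. The 14 were Fga, Fgb, Fgg, C3, C4b, C2, Hc, C8a, Plg, Cpb2, Serpinf2, Kng1, Vtn and Mbl1. The libraries differed among themselves. At ZT9 25 members lay above the other replicates (25.3% of all genes) and 1 below (23.2%), at ZT12 25 above (27.4% of all genes) and 2 below (29%), at ZT15 34 above (24.1% of all genes) and 0 below (27%), and at ZT18 19 above (29.6% of all genes) and 9 below (27.4%). In the 60 other libraries 1 to 24 members lay above the other replicates, with a median of 9, so that the 19 at ZT18 fell within that range. Shifts downward were found too. In sh-Ctl ZT6 replicate 1 and in sh-Acsf3 ZT12 replicate 1, 28 members each lay below the other replicates. These libraries had low Saa1 and TMM factors of 1.22 and 1.23, and the second is of the time of the single-time call. In the counts for the 60 the Saa1-high libraries themselves were left out of the comparison. Fgb stood at 11022, 7362, 5109 and 4270 CPM in the 4 libraries in the order of times, which is 2.70, 1.97, 1.72 and 1.34 times the mean of the other 3 replicates. C4b stood at 1.76, 2.50, 2.05 and 1.60 times that mean, with its largest ratio at ZT12 and not at ZT9. Not all members followed. Klkb1 stood at 0.846, 1.14, 1.04 and 0.906 times the mean of the others, C6, the pore subunit that follows C5b, at 1.06, 0.894, 1.09 and 0.838 times, and Mbl2, a mannose-binding lectin, at 0.859, 1.16, 0.938 and 0.633 times. Each library is 1 sample, so these ratios describe those livers.

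**Figure D3:**
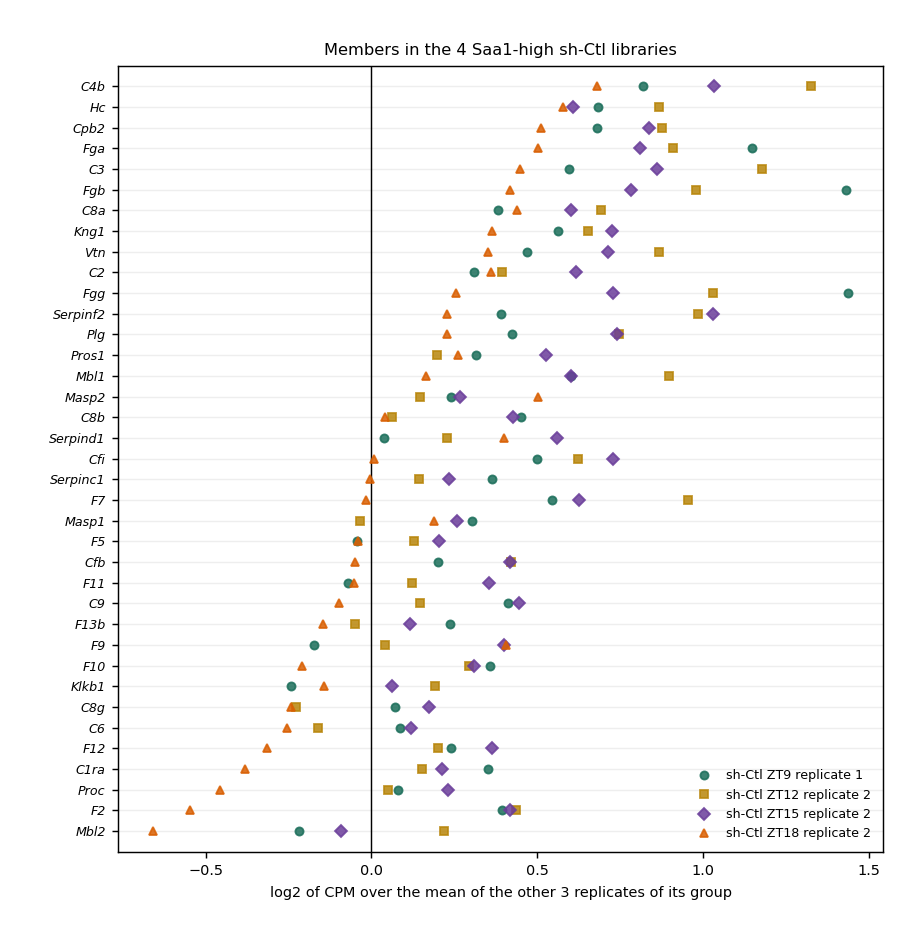
Level of each member in the 4 Saa1-high sh-Ctl libraries, as log2 of its CPM over the mean of the other 3 replicates of the same time, ordered by the lowest of the 4 values. The upper genes, led by C4b, Hc, Cpb2 and Fga, lie right of 0 in all 4 libraries, whereas Klkb1, C6, Proc and Mbl2 lie on both sides of it.

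A 24 h rhythm was found for 7 members in sh-Acsf3 and for 7 in sh-Ctl, which is 18.9% of the members each, against 19.6% of all genes in sh-Acsf3 and 19.4% in sh-Ctl. Among the 2314 genes at or above the lowest member's level the shares were 30.5% in sh-Acsf3 and 29.6% in sh-Ctl. Klkb1, Fga, Fgb, Fgg, Serpinf2 and Pros1 were rhythmic in both treatments, against 11.7% of all genes. C8g, the gamma chain of C8, passed in sh-Acsf3 and Mbl2 in sh-Ctl, and 29 members passed in neither. Fga and Serpinf2 kept both rhythms without each replicate in turn. In sh-Ctl, Fgb lost its rhythm without replicates 1, 3 or 4, Klkb1 without 2 or 4 and Fgg without 1. In sh-Acsf3, Klkb1, Fgb and Fgg lost theirs without replicate 3. A test of any difference among the 8 times did not call Klkb1 or Fgb in sh-Ctl (adjusted p = 0.140 and 0.0776), nor Serpinf2 in sh-Acsf3 (0.0773), nor Pros1 in either. The largest amplitudes belonged to the fibrinogen chains and Serpinf2, the inhibitor of plasmin, which were high in the light phase and low in the dark phase.

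Fgb had 5598, 4428, 4348 and 4523 CPM at ZT3 and 3226, 3109, 2722 and 3049 CPM at ZT15 in sh-Acsf3. In sh-Ctl it had 5221, 3692, 5321 and 4364 CPM at ZT3 and 2521, 5109, 2905 and 3480.2 CPM at ZT15, where 5109 CPM is the Saa1-high library. The 2 times did not overlap in sh-Acsf3, and in sh-Ctl that library alone brought them to overlap. The fitted amplitude of Fgb was 0.34 ± 0.07 in sh-Acsf3 (log2, SE; adjusted p = 0.000963) and 0.25 ± 0.07 in sh-Ctl (adjusted p = 0.0103), with peaks at ZT3.83 ± 0.80 h in sh-Acsf3 and ZT5.95 ± 1.07 h in sh-Ctl. Fga had amplitudes of 0.32 in sh-Acsf3 and 0.33 in sh-Ctl and peaks at ZT4.47 in sh-Acsf3 and ZT6.00 in sh-Ctl. Fgg had amplitudes of 0.34 in sh-Acsf3 and 0.28 in sh-Ctl and peaks at ZT3.86 in sh-Acsf3 and ZT5.84 in sh-Ctl. Serpinf2 had amplitudes of 0.32 in sh-Acsf3 and 0.34 in sh-Ctl and peaks at ZT4.41 in sh-Acsf3 and ZT6.72 in sh-Ctl. For Fga the ratio of the fitted peak to the fitted trough was 1.56 in sh-Acsf3 and 1.58 in sh-Ctl.

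Without the Saa1-high libraries the peaks of Fga, Fgb and Fgg were at ZT4.51, ZT3.87 and ZT3.90 in sh-Acsf3 and at ZT4.31, ZT3.70 and ZT3.72 in sh-Ctl. Their rhythms in sh-Ctl then had adjusted p of 1.84e-07, 2.49e-05 and 1.92e-05 in that order. The test of a difference in rhythm between treatments called 0 members and 0% of all genes (edgeR, and DESeq2 likewise), and 1 member, F7, had an unadjusted p under 0.05.

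**Figure D4:**
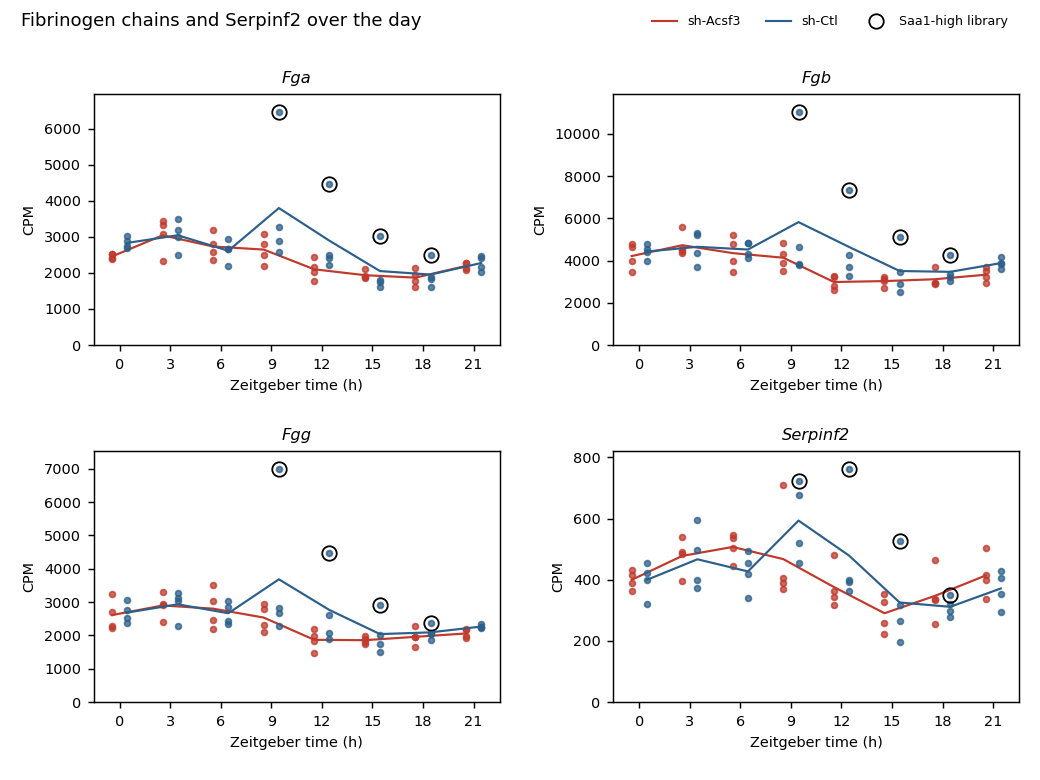
Level in CPM (linear axis from 0) of Fga, Fgb, Fgg and Serpinf2 against zeitgeber time in sh-Acsf3 (red) and sh-Ctl (blue); points are libraries, lines join means of 4, and black rings mark the 4 Saa1-high libraries. All 4 genes are higher at ZT3 than at ZT15 on the red line, and the blue line is raised at ZT9 and ZT12 by ringed libraries, of which Fgb reaches 11022 CPM.

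Klkb1 followed a later course, with amplitudes of 0.20 ± 0.04 in sh-Acsf3 and 0.17 ± 0.04 in sh-Ctl and peaks at ZT7.76 in sh-Acsf3 and ZT9.55 in sh-Ctl. Its adjusted p for rhythm was 0.00178 in sh-Acsf3 and 0.00597 in sh-Ctl. Pros1 peaked in the dark, at ZT16.4 in sh-Acsf3 and ZT13.8 in sh-Ctl, with amplitudes of 0.17 in sh-Acsf3 and 0.18 in sh-Ctl. Its rhythm was near the threshold, with adjusted p of 0.0442 in sh-Acsf3 and 0.0380 in sh-Ctl. It was lost in 23 of 64 fits that each left out 1 library for sh-Acsf3 and in 6 of 64 for sh-Ctl, and without the Saa1-high libraries it was lost in sh-Ctl (adjusted p = 0.305). Mbl2 had an amplitude of 0.15 ± 0.06 in sh-Acsf3 (adjusted p = 0.104) and 0.19 ± 0.06 in sh-Ctl (adjusted p = 0.0232), with its sh-Ctl peak at ZT13.0. C8g in sh-Acsf3 (amplitude 0.15 ± 0.05, adjusted p = 0.0481) was lost in 41 of 64 single-library fits. C3, C4b and Hc, among the members that stood highest in the Saa1-high libraries, passed in neither treatment.

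**Figure D5:**
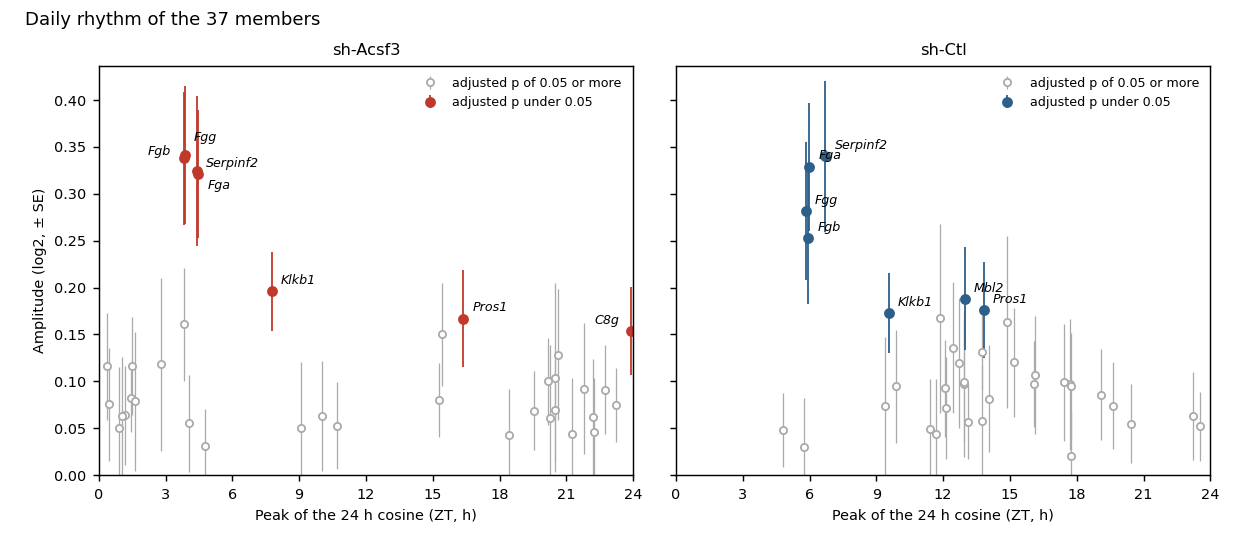
Amplitude (log2, ± SE) against peak time of the fitted 24 h cosine for the 37 members in sh-Acsf3 (left) and sh-Ctl (right); filled points have an adjusted p under 0.05 and are named. Fga, Fgb, Fgg and Serpinf2 have the 4 highest amplitudes in both panels, between ZT3.83 and ZT4.47 in sh-Acsf3 and between ZT5.84 and ZT6.72 in sh-Ctl, and the other points of the panels lie below 0.20.

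The chains of fibrinogen, which assemble in equal numbers, kept their proportions from library to library. Over the 64 libraries the ratio of Fgg to Fgb had a coefficient of variation of 6.17%, against 31.8% for Fgg and 30.6% for Fgb themselves. It ran from 0.545 to 0.679 with a median of 0.622 in sh-Acsf3, and from 0.518 to 0.695 with a median of 0.603 in sh-Ctl. The ratio of Fga to Fgb varied by 11.5%. C8a and C8b, whose products also join in 1 complex, varied in their ratio by 22.5%, more than C8a at 20.9% or C8b at 16.3% alone. These genes are less abundant, with C8b at 276 CPM on average against 4048 CPM for Fgb. The part of counting noise, treatment and time in these variations was not tested. The 3 fibrinogen genes lie next to each other on chromosome 3, with Fgb on the opposite strand, and Fgg lies 11026 bases before Fga. The proximal promoters of the 3 are shown because the genes moved together over the day and in the Saa1-high libraries. They run from 250 bases before to 50 bases after the RefSeq start in GRCm38.p6, at chr3:83025903-83026202 on the plus strand for Fga, chr3:83049814-83050113 on the minus strand for Fgb and chr3:83007474-83007773 on the plus strand for Fgg, and read 5′ to 3′ along the gene. Capitals mark the letters TTCNNNGAA (a STAT site), TTNNGNAA (a C/EBP site) and GTTAAT (a core of the HNF1 site), searched on both strands, and no match overlapped another.

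Fga: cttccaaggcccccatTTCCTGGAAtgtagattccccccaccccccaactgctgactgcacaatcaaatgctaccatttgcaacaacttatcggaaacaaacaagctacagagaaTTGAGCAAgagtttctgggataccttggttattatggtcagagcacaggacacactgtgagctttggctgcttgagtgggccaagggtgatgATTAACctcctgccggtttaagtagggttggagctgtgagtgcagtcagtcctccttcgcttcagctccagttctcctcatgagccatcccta

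Fgb: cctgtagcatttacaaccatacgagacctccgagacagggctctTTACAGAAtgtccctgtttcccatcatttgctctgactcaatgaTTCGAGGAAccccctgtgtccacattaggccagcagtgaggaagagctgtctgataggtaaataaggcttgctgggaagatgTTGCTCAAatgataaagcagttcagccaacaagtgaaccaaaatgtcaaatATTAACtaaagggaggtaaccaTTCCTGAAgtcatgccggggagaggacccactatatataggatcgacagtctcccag

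Fgg: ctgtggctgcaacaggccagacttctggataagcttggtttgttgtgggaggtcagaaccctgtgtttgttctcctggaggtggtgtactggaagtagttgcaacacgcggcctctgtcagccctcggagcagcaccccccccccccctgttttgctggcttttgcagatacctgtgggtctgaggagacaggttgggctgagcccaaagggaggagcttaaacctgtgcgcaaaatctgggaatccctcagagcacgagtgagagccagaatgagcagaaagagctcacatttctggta

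Fga held all 3 motifs, with TTCCTGGAA starting 234 bases, TTGAGCAA 135 bases and ATTAAC 43 bases before the start. Fgb held ATTAAC 29 bases before the start, TTCGAGGAA 162 bases before it and 3 matches to the C/EBP letters. Fgg held none of the 3 in this window. Promoters were found in RefSeq for 29 of the 37 members, as 30 windows. GTTAAT was in 9 of the 30 (30%), against 7.1% of all 32851 promoters, TTCNNNGAA in 8 (26.7%), against 8.3%, and TTNNGNAA in 17 (56.7%), against 40.7%. CACGTG, the E-box bound by the clock proteins CLOCK and BMAL1, was in 0 of the 30, against 7.15%. These matches describe the letters of the windows and show no binding.

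Several members that differed by treatment have another member as a neighbour, and the neighbours did not always share the difference. F11 lies 4657 bases from Klkb1 on chromosome 8, on the same strand, and encodes a protease of similar build. The log2 ratio of F11 to Klkb1 was -3.01 in sh-Acsf3 and -3.30 in sh-Ctl, a difference of 0.30 ± 0.04 (SE over the 8 times), positive at 8 of 8 times. A two-sided permutation test of the labels within times gave p = 0.00015, or 0.000525 adjusted over the 7 neighbouring pairs compared. C2 and Cfb, which encode related proteases, lie 85 bases apart on chromosome 17, on the same strand. Their log2 ratio was -0.52 in sh-Acsf3 and -0.28 in sh-Ctl, a difference of -0.25 ± 0.06, negative at 7 of 8 times (permutation test, p = 3.0e-05, adjusted 0.00021). The annotated gene Gm20547 overlaps both on that strand, and how such reads were assigned is not given in the sources used here. Both ratios passed without the Saa1-high libraries (adjusted p = 0.0007 each). C8a over C8b at -0.19 and F7 over F10 at -0.17 passed in all libraries (adjusted p = 0.0294 and 0.0387) but not without the 4 (0.108 and 0.131). For the 3 ratios among the fibrinogen chains the differences lay between -0.043 and 0.055 and did not pass in all libraries. Fga over Fgb passed without replicate 2, at 0.127 (adjusted p = 0.0134), and Fgb over Fgg without the libraries with pancreas transcripts, at -0.059 (adjusted p = 0.0292). These pairs were chosen after the single genes had been seen.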

How the data were processed

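Gene expression was measured by BRB-seq in the 64 liver libraries. Per the submitters' processing notes, the reads were aligned with STAR to GRCm38/mm10; versions, annotation release and UMI settings are not given in the sources used here. The deposited values are raw UMI counts per gene, not normalized, and each of the 64 columns carries the treatment, time and replicate of its label.

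The analysis used edgeR 4.0.16 (R 4.3.3). The filterByExpr rule, with a minimum count of 10 and a minimum total of 15, kept 10097 of 55487 genes. TMM factors scaled the libraries. A robust quasi-likelihood fit of 16 group means gave the averaged difference, the difference at each time and the test that the 8 differences are equal. A second model with a mean, a cosine and a sine of 24 h per treatment gave the rhythms, with amplitude and peak from least squares on log2 CPM (prior count 2). Adjusted p-values are Benjamini-Hochberg values over the 10097 genes, with a threshold of 0.05. The scripts were checked on simulated counts. Ratios of neighbouring members (within 100000 bases in GENCODE M21) were tested by 100000 permutations of the treatment labels within times, so the smallest p they can give is 1e-05. No 2 replicates of a group looked like copies of one library, since chi-square over its degrees of freedom was at least 2.84 in the 96 pairs.

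The members and the lists of other genes were chosen with earlier results of these data known. One gene of these lists is not reported here. Values are given in full for members that passed a treatment test, for the 6 with the smallest p for rhythm in sh-Ctl and for the 3 most abundant. Alternatives were RLE scaling, library size alone, no gene filter, a mean of at least 5 CPM, DESeq2 1.42.0, limma-voom (limma 3.58.1), a replicate block, an added 12 h cosine, any difference among times, and leaving out replicates or single libraries. Leaving out the 4 Saa1-high libraries or the 8 with pancreas transcripts, and the neighbour ratios, were chosen after seeing the data. F11, the lowest member, rested on 3571 UMIs in sh-Acsf3 and 3561 in sh-Ctl in all.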

Additional observations from a re-analysis of the deposited data

Results flagged for a closer look

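Values are in CPM. In 13 members and 16 groups of 4 libraries each, 208 tests by Dixon's 95% critical value were made for a library far from the other 3, and 16 were found. For normal values and independent tests, chance alone gives about 1 in 20, or 10.4 of 208. The members were picked by their results or level, and members of 1 library moved together. The 16 therefore cannot be weighed against that figure. Of the 16, 9 were Saa1-high sh-Ctl libraries. At ZT9 replicate 1 reached 11022 for Fgb (others 3784 to 4622), 6987 for Fgg (others 2268 to 2807) and 2478 for Plg (others 1794 to 1877). At ZT12 replicate 2 reached 4454 for Fga (others 2215 to 2486) and 761 for Serpinf2 (others 362 to 400.3). At ZT15 replicate 2 reached 3025 for Fga (others 1618 to 1813), 355 for Serpind1 (others 235 to 247) and 49.3 for Pros1 (others 33.2 to 35.5), and at ZT18 replicate 2 reached 488 for C8a (others 355 to 364).

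The rest were in libraries with low Saa1. In sh-Acsf3, Fgb stood at 5598 in ZT3 replicate 1 (others 4348 to 4523) and at 3678 in ZT18 replicate 2 (others 2909 to 2936). Plg was low at 1093 in ZT12 replicate 1 (others 1514 to 1576). Hc stood at 537 in ZT12 replicate 2 (others 369 to 378), Pros1 at 52.8 in ZT15 replicate 3 (others 41.2 to 42.3) and Serpinf2 at 709 in ZT9 replicate 4 (others 368 to 404). In sh-Ctl, Serpinc1 stood at 2558 in ZT0 replicate 3 (others 2003 to 2065).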

How the results depend on the processing

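The count of members lower on average was 8 in the full analysis. It was 4 with library size alone (2.45% of all genes lower) and 4 without the Saa1-high libraries (5.83%). Leaving out replicates 1 to 4 in turn gave 6, 5, 6 and 8, with 3.87%, 5.3%, 2.59% and 4.73% of all genes lower in that order. The other alternatives gave 7 to 12, and 12 was reached with no gene filter, where 2.88% of all genes were lower. The 1 higher member, Pros1, was lost without replicate 3, giving a range of 0 to 1. Calls at single times, 1 in the full analysis, numbered 0 with library size alone, 0 with a mean of at least 5 CPM, 0 without the Saa1-high libraries, 5 with no gene filter, 3 with DESeq2 and 4 without the libraries with pancreas transcripts, and 0 to 1 without single replicates. The test for unequal differences called 1 member, F7, with no gene filter, where 273 of 23436 genes were called, against 0 in the full analysis. Rhythmic members, 7 in each treatment, numbered 4 in sh-Acsf3 and 3 in sh-Ctl by the test of any difference among times (13.1% of all genes in sh-Acsf3 and 12.6% in sh-Ctl). Without single replicates they numbered 2 to 6 in sh-Acsf3 and 3 to 8 in sh-Ctl. Rhythm calls over all genes then fell as well, to between 1140 and 1695 in sh-Acsf3, against 1981 in the full analysis. In sh-Ctl they fell to between 1160 and 1441, against 1954. Without replicates 1 to 4 in turn, the difference in Fga over Fgb ran from -0.0086 to 0.127 and that in Fga over Fgg from -0.043 to 0.072, both turning negative without replicate 4, and Fga over Fgb passing without replicate 2. Fgb lost its averaged call without the pancreas libraries, with limma-voom, with library size alone and without each of replicates 1 to 4. Serpinc1 lost it with library size alone, with no gene filter, under the filter of 5 mean CPM and without replicates 1, 2 or 3. Plg lost it with library size alone and without replicates 2 or 4, and Serpind1 with library size alone and without replicates 2 or 3. F7, which lacked an averaged call in the full analysis, gained it with DESeq2, limma-voom, the replicate block, no gene filter and without replicate 3. It did not pass with RLE scaling, library size alone or a mean of at least 5 CPM. Nor did it pass without the pancreas libraries, the Saa1-high libraries or replicates 1, 2 or 4. The causes were not tested.

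Same-numbered replicates did not deviate together: of 32 pairs across treatments 7 had a correlation over 0.1, and the values ran from -0.157 to 0.261 (median 0.024). The labels do not say whether the numbers pair the samples, and such correlations cannot settle it, so the numbers were not used as pairs. With the replicate block, 10 members were lower (6.73% of all genes) and 1 higher (8.7%). Single-time calls of members numbered 2 (Klkb1 and C2 at ZT12). In each treatment 7 members were rhythmic, with 2072 of 10097 genes rhythmic in sh-Acsf3 and 2030 in sh-Ctl. In 64 fits without 1 library each, lower calls ran from 7 to 12 and rhythmic members from 5 to 7 in sh-Acsf3 and from 6 to 8 in sh-Ctl. Shares of all genes for these fits, and for single-time calls under the alternatives, are not given here. The SE at single times differed between genes: at ZT6 it was 0.28 for F2, at 718 CPM, and 0.12 for Masp1, at 87.9 CPM. From ZT6 to ZT21 it went from 0.245 to 0.265 for F7, from 0.181 to 0.198 for F11 and from 0.283 to 0.284 for F2. Its relation to depth was not tested.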
